A study of Mus musculus with 24 samples.

Results

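Zinc handling was followed in mouse heart through ischemia and reperfusion by way of 6 genes chosen by name: the metallothioneins Mt1 and Mt2, the metal-sensing transcription factor Mtf1, the zinc exporter Slc30a1 (ZnT1) and the zinc importers Slc39a14 (ZIP14) and Slc39a8 (ZIP8). They are 6 of 46078 genes counted, and all 6 were among the 15128 genes with enough reads to be tested. The hearts came from wild-type C57BL/6 mice, and no group carried a transgene or an agent besides surgery, as far as the labels say; age is not used here. The 8 groups were sham surgery, ischemia for 45 min without reperfusion, and the same ischemia with blood flow then restored for 0.5, 1, 1.5, 3, 6 or 12 h, each as 3 libraries (24 in all). Whether libraries within a group stem from different animals is not stated in the labels, so each p-value measures only the spread between these samples, which may be technical. The labels name heart tissue without saying which part of the heart was taken. They give no time after surgery for the sham group, and the reperfusion times have no sham of their own. Reperfusion and time since surgery therefore cannot be told apart in changes against sham.

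Zinc is kept scarce inside cells by proteins that bind it and by transporters in membranes. Metallothioneins are small cysteine-rich proteins that bind zinc and copper and also react with oxidants. MTF1 senses free zinc and turns on genes through metal response elements (MREs), and the metallothionein genes and Slc30a1 are its best-known targets. Metallothionein genes are also known to respond to glucocorticoids and, through STAT3, to interleukin 6. Transporters of the Slc30 (ZnT) family move zinc out of the cytosol, to the outside or into compartments, and those of the Slc39 (ZIP) family move it in. ZIP14 and ZIP8 are close relatives that also carry iron and manganese, and ZIP14 is known as an importer induced by interleukin 6 in liver.

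On GRCm38, Mt2 (chr8:94172664-94173568, plus strand) lies upstream of Mt1 (chr8:94179082-94180327, plus strand), with 5513 bases between them. Both belong to a cluster of 43131 bases that also holds Mt3 and Mt4. Slc30a1 is at chr1:191906767-191913247, plus strand. Slc39a14 is at chr14:70303469-70351425, minus strand, Slc39a8 at chr3:135825279-135888572, plus strand, and Mtf1 at chr4:124802104-124849800, plus strand. The counted lengths were 540 bases for Mt1 and 556 for Mt2, against 5244 for Slc30a1, 10550 for Slc39a14, 7664 for Slc39a8 and 8907 for Mtf1. An antisense gene, Gm45774, overlaps 749 bases of Mt2 and has no count of its own among the genes counted. Another antisense gene, 1700034H15Rik, overlaps 761 bases of Slc30a1 and held 158 reads over all libraries against 10462 for Slc30a1. Mtf1 shares 721 bases with 1110065P20Rik on the opposite strand, which held 1659 reads against 7328. Strand use in the counting is not given in the sources used here, so reads of a gene and of its antisense partner cannot be told apart.

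The upstream sequences of Mt1, Mt2 and Slc30a1 are shown because these are the members best known as MTF1 targets. Each run is the 250 bases before the RefSeq transcription start on GRCm38.p6, read 5′ to 3′ on the plus strand, and capitals mark the MRE core, searched as TGCACNC or TGCGCNC on both strands. The windows are chr8:94178839-94179088 for Mt1, chr8:94172368-94172617 for Mt2 and chr1:191906531-191906780 for Slc30a1. These RefSeq starts differ from the gene starts given above. The windows of Mt1 and Slc30a1 run past those gene starts, and that of Mt2 ends short of it. Distances of matches hold for the RefSeq start alone.
Mt1: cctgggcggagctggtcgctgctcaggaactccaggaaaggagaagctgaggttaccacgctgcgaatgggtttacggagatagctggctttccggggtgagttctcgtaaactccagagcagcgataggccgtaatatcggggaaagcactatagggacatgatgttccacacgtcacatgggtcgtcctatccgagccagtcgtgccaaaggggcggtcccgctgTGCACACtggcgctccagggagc
Mt2: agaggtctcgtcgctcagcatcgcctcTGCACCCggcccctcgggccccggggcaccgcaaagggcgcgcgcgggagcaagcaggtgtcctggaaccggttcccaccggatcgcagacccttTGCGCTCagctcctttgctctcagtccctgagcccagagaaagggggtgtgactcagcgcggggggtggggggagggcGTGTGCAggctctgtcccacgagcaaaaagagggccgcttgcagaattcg
Slc30a1: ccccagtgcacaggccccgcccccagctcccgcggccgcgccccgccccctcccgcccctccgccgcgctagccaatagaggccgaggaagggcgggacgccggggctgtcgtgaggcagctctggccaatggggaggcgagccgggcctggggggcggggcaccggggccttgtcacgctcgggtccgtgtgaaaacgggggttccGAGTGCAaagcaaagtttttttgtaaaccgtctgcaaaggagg
Matches were counted over 300 bases, the 250 shown and the 50 from the start onward. Mt1 held 3 matches, at -23 to -17, at 3 to 9 and at 21 to 27 from the start. Mt2 held 4, which began at -223, -128, -50 and 5. Slc30a1 held 2, which began at -43 and 31. Among 32851 RefSeq windows of this length, 25.7% held at least 1 match, 7.11% at least 2, 1.97% at least 3 and 0.517% at least 4. The window of Mtf1 held 0 matches, and the pair of windows of Slc39a8 held 0 and 1. The STAT-type motif TTCNNNGAA was in none of the 6 windows of the 5 members with a RefSeq entry, against 8.30% of all windows. The antioxidant-response motif TGACNNNGC was in the windows of Mt2, of Slc30a1 and in 1 of those of Slc39a8, against 12.4% of all windows. These are matches of letters and say nothing of binding, and letters not found in so short a window may lie elsewhere.

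Counts per library summed to between 13407500 and 17181500, of which 39.2% to 54.5% were duplicates (reads that share their mapped position with another) and 19.0% to 33.2% were mitochondrial. Both shares moved with the groups: in sham 50.1% to 54.4% were duplicates and 28.9% to 33.2% mitochondrial, and at 6 h 41.9% to 45.5% and 19.0% to 21.3%. Beyond the fits without duplicates and with scaling that leaves out mitochondrial genes, their part in the results was not tested. Cardiomyocyte markers summed to between 55177 and 58471 CPM in sham, while 4 hepatocyte and 4 fat markers stayed at or below 1.54 CPM in every library. Values are CPM, the reads of a gene scaled to a common library size after TMM normalization. Changes are log2 fold changes against sham from edgeR's quasi-likelihood test, called where the Benjamini-Hochberg adjusted p over all genes tested was under 0.05. Their standard error (SE) was derived from that test, as the absolute log2 fold change over the square root of its F statistic. Because whole tissue was sequenced, fewer cells of a type and less RNA per cell cannot be told apart.

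**Figure D1:**
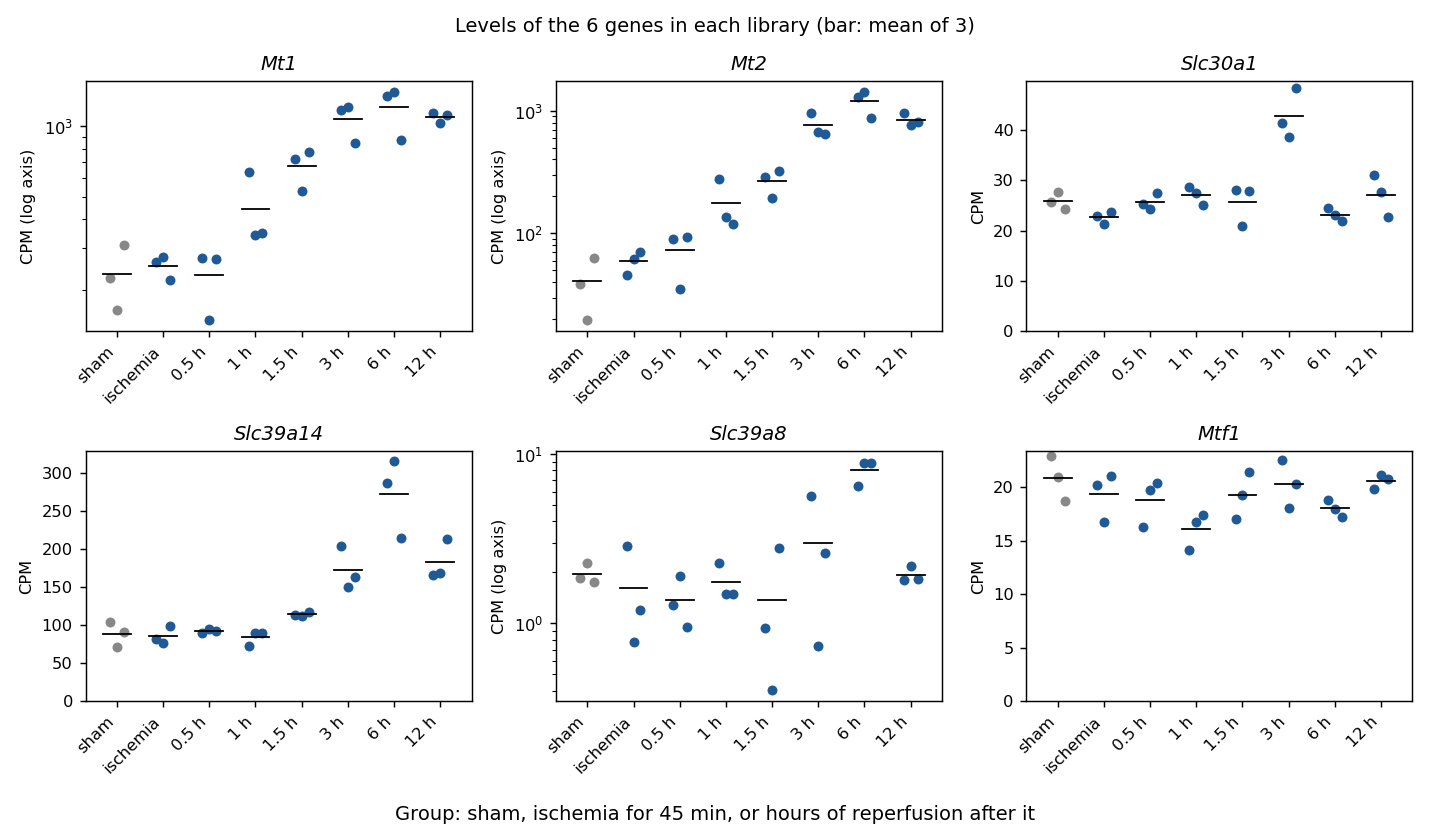
Level of each gene (y axis, CPM, on a log axis for Mt1, Mt2 and Slc39a8) in every library by group (x axis: sham, 45 min of ischemia, hours of reperfusion after it), where points are libraries and bars the mean of 3. Mt1 and Mt2 are above every sham library from 1 h onward, Slc30a1 is high at 3 h, Slc39a14 from 3 h and Slc39a8 at 6 h, and Mtf1 lies between 14.1 and 22.9 CPM in all 24 libraries.

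Of the 6 genes, 5 changed over the 8 groups in the overall test, which called 64.3% of all genes tested. Mtf1 was the one not called, with an adjusted p of 0.196. Against sham, 0 of the 6 were called after ischemia alone, where 0.0925% of all genes tested were called. At 0.5 h 0 of the 6 were called, where 7.43% of all genes were higher and 4.48% lower. Mt1 and Mt2 were called higher at 1 h and at 1.5 h, where 7.46% and 4.55% of all genes were. At 3 h 4 were higher, namely both metallothioneins, Slc30a1 and Slc39a14, against 18.4% of all genes. At 6 h 4 were higher, with Slc39a8 in the place of Slc30a1, against 24.6% of all genes. At 12 h 3 were higher, both metallothioneins and Slc39a14, against 16.9% of all genes. No member was called lower in any of the 7 comparisons, where the share of all genes called lower was 3.41% at 1 h, 2.99% at 1.5 h, 16.9% at 3 h, 22.9% at 6 h and 14.9% at 12 h. The 7 comparisons share the sham libraries. The 6 genes, and the gene lists below, were chosen with earlier results of these data known. Their counts beside the share of all genes are therefore a description only.

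**Figure D2:**
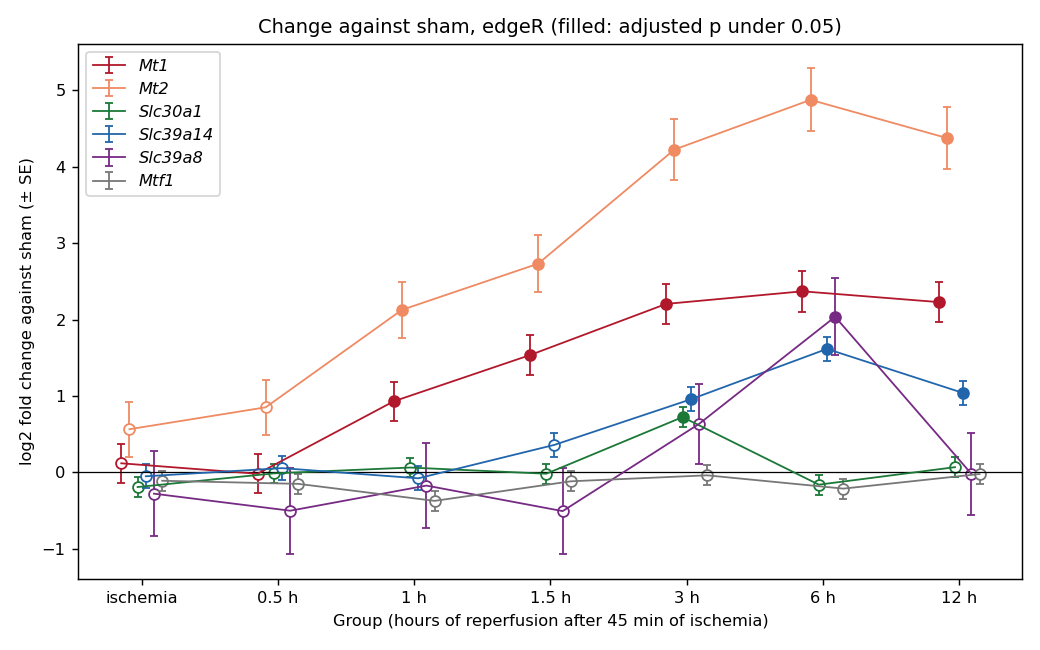
Log2 fold change against sham with its SE (y axis) for the 6 genes after ischemia and at each reperfusion time (x axis), from edgeR, where filled points had an adjusted p under 0.05. Mt2 reached 4.88 at 6 h and Mt1 2.37, Slc39a14 and Slc39a8 were highest at 6 h, and Slc30a1 was called at 3 h alone.

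Mt2 showed the largest change of the 6. Its level was 38.9, 19.8 and 63.0 CPM in the sham libraries, 46.2, 62.4 and 70.9 after ischemia, and 90.8, 35.2 and 93.1 at 0.5 h. It then stood at 275.1, 137.2 and 118.6 CPM at 1 h and at 290.01, 194.4 and 322.5 at 1.5 h. At 3 h the values were 957.9, 672.5 and 642.3 CPM, at 6 h 1292, 1408 and 869.5, and at 12 h 953.2, 758.5 and 812.2. Ischemia and 0.5 h overlapped sham, and from 1 h onward every library was above every sham library. Sham replicate 2 was the lowest of all 24.

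In the fit, Mt2 rose by a log2 fold change of 2.13 ± 0.37 (SE) at 1 h (edgeR adjusted p = 0.000742), 2.73 ± 0.38 at 1.5 h (adjusted p = 3.05e-05), 4.23 ± 0.40 at 3 h (adjusted p = 6.18e-08), 4.88 ± 0.41 at 6 h (adjusted p = 2.80e-09) and 4.38 ± 0.40 at 12 h (adjusted p = 2.54e-08). The 6 h change was 29.4-fold. Not past the threshold were ischemia (0.56 ± 0.36, edgeR adjusted p = 0.712) and 0.5 h (0.85 ± 0.36, adjusted p = 0.122), the latter called without 0.5 h replicate 2 (1.18, adjusted p = 0.0404). The groups at 3, 6 and 12 h overlapped their neighbours in the order of levels, as did 1 h and 1.5 h. The 3 h group lay wholly above the 1.5 h group.

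Mt1 started higher and moved less. Sham held 225.1, 164.6 and 309.7 CPM, ischemia 261.5, 276.4 and 221.002, and 0.5 h 272.02, 148.8 and 269.5. The values were 639.7, 342.3 and 350.3 CPM at 1 h and 724.8, 528.5 and 773.2 at 1.5 h. They were 1172, 1206 and 846.1 CPM at 3 h, 1350.3, 1393 and 871.9 at 6 h, and 1137, 1029.6 and 1111 at 12 h. Ischemia and 0.5 h overlapped sham, and all 15 later libraries were above it.

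Mt1 rose by 1.54 ± 0.26 on the log2 scale at 1.5 h (edgeR adjusted p = 0.000425), by 2.21 ± 0.26 at 3 h (adjusted p = 1.33e-06), by 2.37 ± 0.27 at 6 h (adjusted p = 1.63e-07) and by 2.23 ± 0.26 at 12 h (adjusted p = 9.02e-07). The 6 h change was 5.17-fold. At 1 h the change was 0.93 ± 0.26 (edgeR adjusted p = 0.0210). That call was lost without sham replicate 1 (adjusted p = 0.0771), without sham replicate 2 (adjusted p = 0.116) and without 1 h replicate 1 (0.58, adjusted p = 0.191). It was also lost in a fit of sham and 1 h alone (edgeR adjusted p = 0.0566). The 3, 6 and 12 h groups overlapped one another.

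How duplicates were treated moved the size of the metallothionein changes. Duplicates made up 36.3% to 49.9% of Mt2 reads in sham and 73.3% to 76.7% at 6 h. For Mt1 they made up 51.6% to 59.3% in sham and 66.0% to 68.9% at 6 h. In the other 4 genes the share was at most 35.1% in any library. With duplicates removed, Mt2 was 10.2-fold higher at 3 h in place of 18.7-fold, 12.4-fold at 6 h in place of 29.4-fold, and 9.16-fold at 12 h in place of 20.8-fold. Mt1 was 2.91-fold higher at 12 h in place of 4.69-fold. Every one of the 10 calls for Mt1 and Mt2 against sham held without duplicates. Mt1 and Mt2 are related genes and have relatives elsewhere in the genome, so some reads may map to several places. Uniquely mapped reads made up 93.1% to 99.5% of all Mt1 reads and 96.9% to 99.8% of Mt2 reads in each library.

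The ratio of Mt1 to Mt2 was lower at the later times than in sham, though 3 libraries against 3 are too few for its test to pass 0.05. Per kilobase of counted length, Mt1 was 5.96, 8.56 and 5.06 times the level of Mt2 in the sham libraries, a mean of 6.53 ± 1.82 (SD, n = 3). After ischemia the ratio was 5.83, 4.56 and 3.21, which overlapped sham. It was 3.08, 4.36 and 2.98 at 0.5 h, 2.39, 2.57 and 3.04 at 1 h, and 2.57, 2.80 and 2.47 at 1.5 h. It was 1.26, 1.85 and 1.36 at 3 h, 1.08, 1.02 and 1.03 at 6 h, and 1.23, 1.40 and 1.41 at 12 h. With duplicates kept, none of the 18 reperfused libraries reached the lowest sham ratio. Without them, 0.5 h replicate 2 (4.25) was above sham replicate 3 (4.11). An exact permutation test of the log2 ratio against sham gave a two-sided p of 0.1 at each of the 6 reperfusion times, which is the smallest that 3 libraries against 3 allow, and 0.2 after ischemia. Adjusted over the 7 comparisons, the exact permutation p was 0.117 at each reperfusion time and 0.2 after ischemia. None passed 0.05, and none could, so this test cannot decide whether the ratio changed. Without duplicates the mean ratio was 5.03 in sham, 1.36 at 6 h and 1.49 at 12 h.

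**Figure D3:**
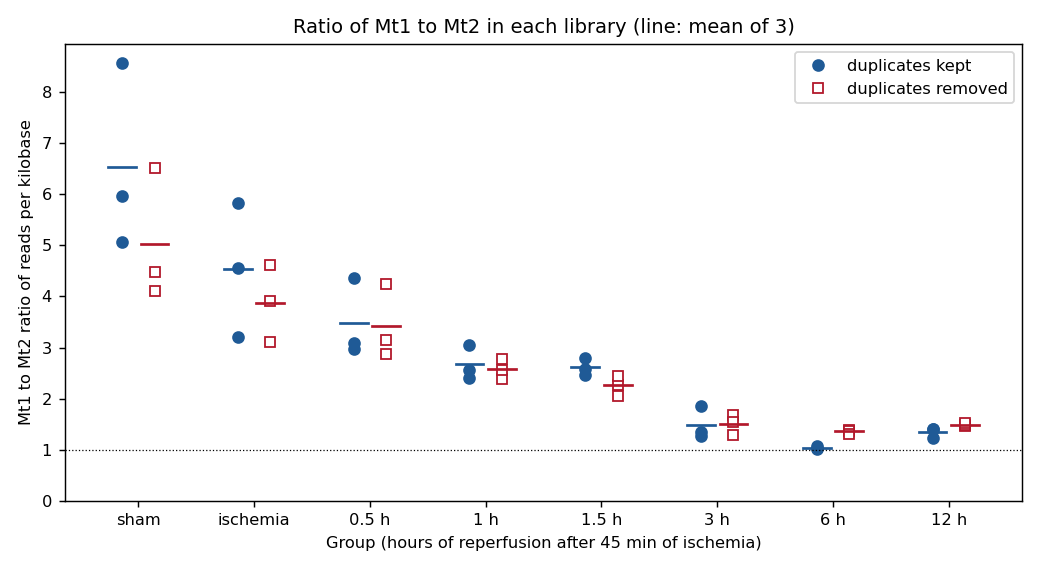
Ratio of Mt1 to Mt2 reads per kilobase (y axis, from 0) in each library by group (x axis), with duplicates kept (filled circles) and removed (open squares), where lines are the mean of 3 and the dotted line marks equal levels. With duplicates kept the ratio is 5.06 to 8.56 in sham and 1.02 to 1.08 at 6 h.

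Summed, Mt1 and Mt2 went from 274 ± 94.6 CPM (SD, n = 3) in sham to 2395 ± 571 at 6 h and 1934 ± 151 at 12 h. Of the other metallothioneins, Mt4 had 5 reads over all 24 libraries and was not tested. Mt3, known mainly from brain, was outside the rule for named genes and is given here after its values were seen. Mt3 held 9 reads in sham and 41 at 6 h, with a log2 fold change of 1.94 ± 0.74 (edgeR adjusted p = 0.0342), a call lost in 7 of 33 alternatives.

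Mtf1, the metal sensor itself, was not called in any comparison. Its sham values were 22.9, 20.9 and 18.7 CPM. The widest difference was at 1 h, where it held 14.1, 16.8 and 17.4 CPM, all below sham, with a log2 fold change of -0.37 ± 0.13 (edgeR adjusted p = 0.0690). That difference passed the threshold without duplicates (-0.37, edgeR adjusted p = 0.0478). At 6 h, when Mt2 was at its highest mean, Mtf1 held 18.8, 18.0 and 17.2 CPM, a change of -0.21 ± 0.13 (edgeR adjusted p = 0.188). Transcript level says nothing of whether the MTF1 protein was active.

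Slc30a1, which carries zinc out of the cell across the plasma membrane, was called at 3 h alone. The sham libraries held 25.7, 27.7 and 24.3 CPM, and the 3 h libraries 41.4, 38.5 and 48.3. All 3 were above each of the other 21 libraries, which lay between 20.8 and 31.0 CPM. The log2 fold change at 3 h was 0.72 ± 0.13 (edgeR adjusted p = 0.000144). At 6 h the values were 24.5, 23.0 and 21.9 CPM, a change of -0.16 ± 0.13 against sham (edgeR adjusted p = 0.316). Between neighbouring times Slc30a1 rose by 0.74 ± 0.13 from 1.5 to 3 h (edgeR adjusted p = 0.000940) and changed by -0.88 ± 0.13 from 3 to 6 h (adjusted p = 2.36e-05).

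Slc39a14 was first called at 3 h and was highest at 6 h. It held 104.5, 71.1 and 90.8 CPM in sham, 81.6, 76.1 and 99.3 after ischemia, 90.2, 94.4 and 92.1 at 0.5 h, and 72.7, 90.2 and 89.3 at 1 h. At 1.5 h the values were 113.4, 111.7 and 116.9 CPM, above all 3 sham libraries, with a log2 fold change of 0.36 ± 0.16 that did not pass the test (edgeR adjusted p = 0.169). At 3 h the values were 203.9, 149.4 and 163.3 CPM, at 6 h 286.6, 315.7 and 214.5, and at 12 h 166.2, 167.9 and 213.3. Every library from 3 h onward was above every sham library.

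The changes in Slc39a14 were 0.96 ± 0.16 at 3 h (edgeR adjusted p = 6.40e-05), 1.62 ± 0.16 at 6 h (adjusted p = 2.40e-08) and 1.04 ± 0.16 at 12 h (adjusted p = 2.29e-05). The 6 h change was 3.07-fold. The 3 h and 12 h groups overlapped, and the 6 h group lay above both. Slc39a14 also moved between neighbouring times, by 0.60 ± 0.16 from 1.5 to 3 h (edgeR adjusted p = 0.0191), by 0.66 ± 0.16 from 3 to 6 h (adjusted p = 0.00268) and by -0.58 ± 0.15 from 6 to 12 h (adjusted p = 0.0148). The first of these was lost without 1.5 h replicate 1 (adjusted p = 0.0652), without 1.5 h replicate 2 (adjusted p = 0.0764) and without 3 h replicate 1 (adjusted p = 0.113). The last was lost without 6 h replicate 2 (adjusted p = 0.113), without 12 h replicate 1 (adjusted p = 0.0639) and without 12 h replicate 2 (adjusted p = 0.0627), and in a fit of those times alone (edgeR adjusted p = 0.0544).

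Slc39a8 was the scarcest of the 6 and was called at 6 h alone. Sham held 1.86, 2.26 and 1.76 CPM, 84 reads in all, and 6 h held 6.44, 8.90 and 8.90 CPM, 398 reads in all. At 12 h it was back at 1.81, 2.17 and 1.82 CPM. The 6 h libraries were above all other 21, of which the highest was 3 h replicate 1 at 5.66 CPM, while the other two 3 h libraries held 0.739 and 2.60. The change at 6 h was 2.04 ± 0.51 on the log2 scale (edgeR adjusted p = 0.00199), or 4.10-fold. From 6 to 12 h Slc39a8 fell, with a log2 fold change of -2.06 ± 0.50 (edgeR adjusted p = 0.00727). From 3 to 6 h it changed by 1.40 ± 0.48 (edgeR adjusted p = 0.0315), a call lost without 3 h replicate 2, 3 h replicate 3, 6 h replicate 2 or 6 h replicate 3 (adjusted p = 0.142, 0.0998, 0.0882 and 0.0829). It was also lost with DESeq2 (adjusted p = 0.0575) and in a fit of those times alone (edgeR adjusted p = 0.0699). Without 3 h replicate 1 the same change was 2.25.

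Levels of different genes compare only per length. In sham the mean per kilobase was 432 CPM for Mt1, 73.0 for Mt2, 8.42 for Slc39a14, 4.94 for Slc30a1, 2.34 for Mtf1 and 0.256 for Slc39a8. At 6 h it was 2232 CPM for Mt1, 2140 for Mt2, 25.8 for Slc39a14, 4.42 for Slc30a1, 2.02 for Mtf1 and 1.05 for Slc39a8. The order of the 6 genes was the same in these groups. Per kilobase, Slc39a14 was 22.9 to 40.8 times as abundant as its relative Slc39a8 in the sham libraries and 17.5 to 32.3 times at 6 h. Those ranges overlapped.

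Steps between neighbouring times were tested as well, though a step without a call does not show that a gene stood still. From ischemia to 0.5 h, from 0.5 to 1 h and from 1 to 1.5 h 0 of the 6 were called by edgeR, where 0.0331%, 0% and 0.0661% of all genes were. The unadjusted p was 0.00106 for Mt1 and 0.00155 for Mt2 from 0.5 to 1 h. From 1.5 to 3 h 3 were higher, Mt2, Slc30a1 and Slc39a14, against 5.36% of all genes. From 3 to 6 h Slc39a14 and Slc39a8 were higher, against 14.7% of all genes, and Slc30a1 lower, against 13.2%. From 6 to 12 h Slc39a14 and Slc39a8 were lower, against 6.68% of all genes. Mt2 changed by 1.49 ± 0.36 from 1.5 to 3 h (edgeR adjusted p = 0.0105), a call lost without 1.5 h replicate 2 (adjusted p = 0.0749) or 3 h replicate 1 (adjusted p = 0.0536). Mt1 was called in none of the 6 steps, though it was called higher than sham at each time from 1 h onward.

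Markers of other cell types moved too. Summed neutrophil markers were 1.73 to 5.03 CPM in sham, 9.39 to 26.6 at 3 h, 53.7 to 131 at 6 h and 48.2 to 54.2 at 12 h, and 5 of 5 tested were higher at 3, 6 and 12 h. Summed monocyte markers were 93.9 to 97.9 CPM in sham, 123 to 231 at 6 h and 166 to 235 at 12 h, with 5 of 5 higher at both times. Summed fibroblast markers were 1284 to 1350 CPM in sham and 481 to 771 at 6 h, with 1 of 6 higher and 5 lower. Summed endothelial markers were 877 to 967 CPM in sham, 1019 to 1160.3 at 3 h, 1148 to 1175 at 6 h and 797 to 964 at 12 h, with 3 of 6 higher and 1 lower at 3 h and 2 higher and 0 lower at 6 h. Summed smooth muscle and pericyte markers were 1077 to 1189 CPM in sham and 657 to 936 at 6 h, with 2 of 6 higher and 2 lower. Cardiomyocyte markers summed to between 51531 and 72753 CPM at 3 h, with 3 of 7 higher and 2 lower. They summed to between 47571 and 54792 CPM at 6 h, below every sham library, and between 38433 and 46071 at 12 h, with 3 of 7 lower and 0 higher at both times. Summed macrophage markers were 229 to 248 CPM in sham and 242 to 279 at 6 h, with 4 of 8 higher and 3 lower. Their part in the changes of Mt1, Mt2, Slc39a14 and Slc39a8 was not tested. The neutrophil sum was 8.37 to 14.03 CPM after ischemia and 7.89 to 12.24 at 0.5 h, above every sham library. Of the 5 tested, 0 were higher after ischemia and 2 at 0.5 h, when neither Mt1 nor Mt2 was called. The sum was 9.08 to 12.3 CPM at 1 h and 8.16 to 20.8 at 1.5 h, with 4 of 5 higher at both times. The part of neutrophils in the early change of Mt1 and Mt2 was not tested either.

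Counts for the wider zinc transporter families follow, and a difference between the families was not tested. Of 14 Slc39 importers 12 were tested, and at 6 h 6 were higher and 0 lower, with a median log2 fold change of 0.84 against -0.01 over all genes tested, where 24.6% of all genes were higher and 22.9% lower. The 6 were Slc39a1, Slc39a6, Slc39a8, Slc39a10, Slc39a13 and Slc39a14. At 12 h 6 were again higher and 0 lower, with a median of 0.83, against 16.9% and 14.9% of all genes. At 3 h 3 of 12 were higher (2 to 4 when single libraries were left out) and 0 lower, with a median of 0.03, a share near the 18.4% of all genes called higher. Slc39a6 (ZIP6) went from 6.12 ± 1.40 CPM in sham to 17.6 ± 3.74 (SD, n = 3) at 6 h, a log2 fold change of 1.51 ± 0.20 (edgeR adjusted p = 1.34e-06). Slc39a10 (ZIP10), its close relative and a gene that MTF1 is known to repress, went from 19.2 ± 1.98 to 47.3 ± 10.7 CPM (SD, n = 3), a change of 1.30 ± 0.18 (edgeR adjusted p = 3.21e-06). Slc39a5 (ZIP5) was higher at 12 h by 1.83 ± 0.49 (edgeR adjusted p = 0.00567), from 0.302 to 1.10 CPM. The single lower call among importers was Slc39a2 at 1.5 h, with 5 reads against 22 in sham (edgeR adjusted p = 0.0491), named after its values were seen, and it was lost in 25 of 33 alternatives.

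Of 10 Slc30 exporters 7 were tested, with calls in both directions. At 3 h 2 were higher, Slc30a1 and Slc30a4, and 3 lower, Slc30a5, Slc30a6 and Slc30a9, with a median log2 fold change of -0.34 against -0.01 over all genes tested, of which 18.4% were higher and 16.9% lower. The 3 h counts fell to as few as 1 higher and 1 lower when single libraries were left out, and to 0 lower without the filter. At 6 h 1 was higher and 2 lower, against 24.6% and 22.9% of all genes, and at 12 h 0 were higher and 1 lower, against 16.9% and 14.9%. Slc30a4 (ZnT4), which loads zinc into vesicles, went from 21.5 ± 3.16 CPM in sham to 37.7 ± 6.06 (SD, n = 3) at 6 h, a change of 0.82 ± 0.17 (edgeR adjusted p = 0.000468). Slc30a2 (ZnT2) went from 1.24 to 0.344 CPM at 6 h, a change of -1.82 ± 0.52 (edgeR adjusted p = 0.00606). Slc30a7 (ZnT7), which serves the Golgi, was lower at 1 h by -0.60 ± 0.20 (edgeR adjusted p = 0.0497), a call lost in 20 of 33 alternatives. Among those were the fit with a replicate block (edgeR adjusted p = 0.0534), limma-voom (adjusted p = 0.0646) and every fit without a sham or 1 h library (adjusted p up to 0.140).

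**Figure D4:**
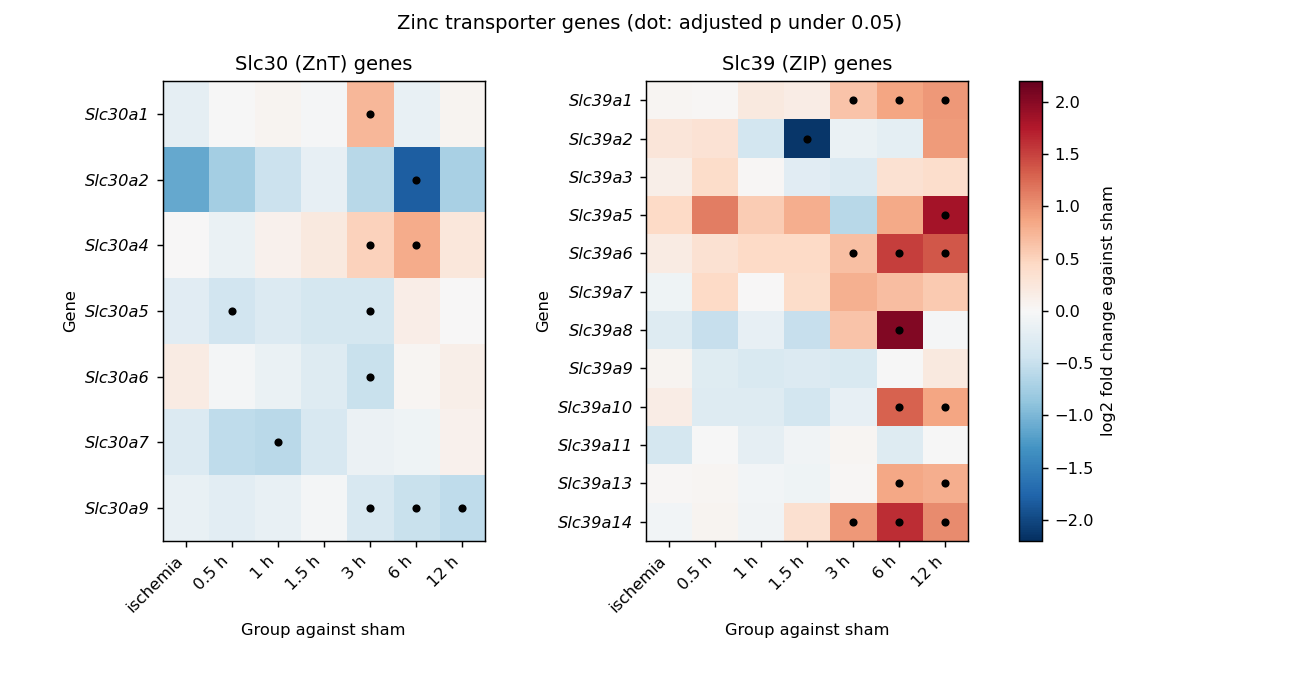
Log2 fold change against sham (colour, red higher and blue lower) of the 7 tested Slc30 and 12 tested Slc39 genes (rows) after ischemia and at each reperfusion time (columns), where dots mark an edgeR adjusted p under 0.05. Dots on red gather in the Slc39 panel at 6 and 12 h, with 6 genes at each time, and the Slc30 panel has calls in both directions.

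Of 5 tested genes known to answer to metal or MTF1 other than the members, 3 were higher and 0 lower at 6 h, with a median log2 fold change of 0.83, against 24.6% and 22.9% of all genes. Gclc, the catalytic subunit of the enzyme that starts glutathione synthesis, went from 16.9 ± 2.61 CPM to 30.2 ± 1.22 (SD, n = 3), a change of 0.83 ± 0.16 (edgeR adjusted p = 0.000140). Ndrg1, a stress-response gene, went from 31.2 ± 3.97 to 55.3 ± 4.02 CPM (SD, n = 3), a change of 0.83 ± 0.16 (edgeR adjusted p = 0.000187). Slc39a10, described above, is on that list too, and since MTF1 is known to repress it, the list holds genes of opposite known response.

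Genes of interleukin 6, STAT3 and glucocorticoid signalling, both known to act on metallothionein transcription, formed a list of 12, all tested. It holds cytokines, receptors and Stat3, and also genes that these signals are known to induce (Socs3, Fkbp5, Tsc22d3, Per1 and Zbtb16). Counted higher and lower were 1 and 0 after ischemia, 3 and 0 at 0.5 h, 4 and 0 at 1 h, 5 and 0 at 1.5 h, 10 and 1 at 3 h, 8 and 2 at 6 h and 7 and 1 at 12 h. Of all genes, 0.0925% were called in either direction after ischemia, and those higher made up 7.43% at 0.5 h, 7.46% at 1 h, 4.55% at 1.5 h, 18.4% at 3 h, 24.6% at 6 h and 16.9% at 12 h. Those lower made up 4.48% at 0.5 h, 3.41% at 1 h, 2.99% at 1.5 h, 16.9% at 3 h, 22.9% at 6 h and 14.9% at 12 h. When single libraries were left out, the higher count ran from 0 to 2 after ischemia (0 without any 1 sham library, 2 without ischemia replicate 1, 0.5 h replicate 2 or 3, 1 h replicate 3, 1.5 h replicate 3 or 6 h replicate 2). The lower count ran from 1 to 2 at 6 h (1 without sham replicate 3, 6 h replicate 1 or 6 h replicate 3), from 1 to 2 at 3 h (2 without 3 h replicate 1) and from 0 to 1 at 12 h (0 without sham replicate 2, sham replicate 3 or 12 h replicate 1). Without the filter the higher count was 3 after ischemia and 8 at 1.5 h. The median log2 fold change was 1.15 at 1.5 h and 1.38 at 3 h. Il6 itself had 1 read over the sham libraries and 1054 at 1.5 h, a ratio of 1003 with a 95% counting interval of 180 to 39642. Socs3, a feedback inhibitor that STAT3 induces, went from 2.41 ± 0.714 CPM to 257 ± 108 (SD, n = 3) at 1.5 h, a change of 6.71 ± 0.60 (edgeR adjusted p = 1.93e-07). Osm, an interleukin 6 family cytokine, went from 0.101 to 5.31 ± 2.16 CPM (SD, n = 3) at 6 h (edgeR adjusted p = 1.67e-07).

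Genes of the glucocorticoid arm had calls in both directions, and those named here were chosen after their values were seen. On the whole list of 12, which also holds the interleukin 6 genes, 10 were higher at 3 h, 1 lower and 1 not called. The 1 lower at 3 h was Nr3c1. At 6 h 8 of the 12 were higher and 2 lower. Values of Per1 and Zbtb16 are not given here. Among all genes tested, 18.4% were called higher and 16.9% lower at 3 h, and 24.6% higher and 22.9% lower at 6 h. Nr3c1, the glucocorticoid receptor itself, went from 93.9 ± 8.37 CPM in sham to 64.3 ± 3.48 (SD, n = 3) at 3 h, a log2 fold change of -0.55 ± 0.13 (edgeR adjusted p = 0.00268). Tsc22d3, a gene that glucocorticoids induce, went from 132 ± 10.1 to 85.1 ± 23.8 CPM (SD, n = 3) at 6 h, a change of -0.63 ± 0.19 (edgeR adjusted p = 0.00770). Fkbp5, another such gene, went from 28.0 ± 16.9 to 208 ± 71.8 CPM (SD, n = 3) at 6 h, a change of 2.89 ± 0.37 (edgeR adjusted p = 1.18e-06).

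Likeness to other genes was measured as the root mean square (RMS) difference of the 7 log2 fold changes against sham, over 10151 tested genes with a mean of at least 5 CPM. Nearest to Mt2 were Hmox1 (RMS 0.50), the heme-degrading oxygenase, then Ch25h (RMS 0.72), cholesterol 25-hydroxylase, and Sele (RMS 0.73), the endothelial E-selectin. Nearest to Mt1 were Fgl2 (RMS 0.33), Eif1a (RMS 0.39) and a gene listed without a symbol (RMS 0.41). Nearest to Slc39a14 were Slc2a1 (RMS 0.11), the glucose transporter GLUT1, then Nrap (RMS 0.12), a muscle-specific actin-binding protein, and Baz1a (RMS 0.13). By this measure, which compares the size of the changes, Mt1 ranked 73 among the genes nearest to Mt2, at an RMS of 1.64. At that same RMS, Mt2 ranked 5024 among the genes nearest to Mt1. Ranked instead by correlation of log2 CPM over the 24 libraries, which ignores the size of the changes, Mt1 ranked 1 for Mt2 and Mt2 ranked 1 for Mt1. The libraries of a group share their condition, so these ranks are a description. Hmox1 had log2 fold changes of 4.04 at 3 h, 4.53 at 6 h and 3.26 at 12 h, beside 4.23, 4.88 and 4.38 for Mt2. All these profiles share the sham libraries.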

How the data were processed

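RNA from flash-frozen hearts of C57BL/6 mice was taken with Trizol and made into libraries with an Illumina TruSeq RNA kit, per the labels' protocols. Groups came from each sample's treatment label. Per the file headers, each library's table from the authors lists 46078 Ensembl genes with raw read counts, with and without duplicates and multiply mapped reads. The submitters' processing notes name mm10 as the build. Not given in the sources used here: aligner, duplicate marker, counter, strand setting and annotation release. Among the deposited columns, that of unique reads including duplicates was analysed, at 13407500 to 17181500 counts per library, where a floor of 3 counts is 0.175 to 0.224 CPM. Without molecular identifiers, such floors and intervals reflect counting error alone. Libraries of one group differed by more than sampling noise, and 0 pairs were identical.

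All 24 libraries were fitted in 1 model with 1 coefficient per group (edgeR 4.0.16, R 4.3.3, quasi-likelihood test, TMM scaling, filterByExpr with a minimum count of 10 and a minimum total of 15), with 16 residual degrees of freedom. P-values were adjusted by Benjamini-Hochberg over 15128 genes in each of 7 comparisons with sham and 6 with the time before. Alternatives were DESeq2 1.42.0, limma-voom (limma 3.58.1), other scalings, no filter, other count columns, a fit of 2 groups, the replicate number as a block, and leaving out each library. The members and gene lists were chosen with earlier results of these data known. Named genes are all members, up to 3 other genes per list with the largest called change and at least 1 CPM, and the 3 genes most like Mt1, Mt2 and Slc39a14. The test of the Mt1 to Mt2 ratio was added after seeing the data. Tested on simulated data for 6 h against sham (14828 genes, 200 changed), the fit recovered 64% of 2-fold and 97% of 4-fold changes, and 7.47% of its calls were false. In the real data 7174 genes were called at 6 h, far more than the simulation changed, so these rates need not hold there. Symbols matched 45143 IDs (98.0%). Positions came from GENCODE vM21 and promoter windows from RefSeq on GRCm38.p6, with an entry for 5 of the 6 genes.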

Additional observations from a re-analysis of the deposited data

Results flagged for a closer look

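Some changes stood out because a direct test between neighbouring reperfusion times passed, so that the effect against sham differed between those times (edgeR's quasi-likelihood test, adjusted over all genes). From 1.5 to 3 h the log2 fold changes were 1.49 for Mt2, 0.74 for Slc30a1 and 0.60 for Slc39a14. From 3 to 6 h they were -0.88 for Slc30a1, 0.66 for Slc39a14 and 1.40 for Slc39a8. From 6 to 12 h they were -0.58 for Slc39a14 and -2.06 for Slc39a8. Slc30a1 therefore moved in opposite directions in 2 steps in a row, and its calls held in all 33 alternatives. Slc39a14 and Slc39a8 had values that went up and then down, but not every step held. The Slc39a8 call from 3 to 6 h was lost in 6 of 33 alternatives. For Slc39a14 the call was lost in 3 of 33 from 1.5 to 3 h and in 4 from 6 to 12 h. The Mt2 call was lost in 2 of 33. Of all genes, 5.36% were called higher from 1.5 to 3 h, 14.7% higher and 13.2% lower from 3 to 6 h, and 6.68% lower from 6 to 12 h.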

How the results depend on the processing

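Of 15 called changes of the members against sham, 14 kept their direction and their call under every alternative, with Mt1 at 1 h as the exception. Over 84 member results and 2766 alternative values, 2696 kept direction and side of the threshold, 19 lost the call, 14 gained it and 37 turned direction. None of those 37 was called in either fit. Without the filter, the number of the 6 genes called was 1 after ischemia and 1 at 0.5 h against sham, 2 from 0.5 to 1 h, 2 from 1 to 1.5 h and 5 from 1.5 to 3 h, and the cause was not tested. With only the groups compared in the fit, it was 1 at 1 h and 1 from 6 to 12 h. Leaving out 1 library at a time, it ranged from 0 to 1 at 0.5 h, 1 to 2 at 1 h, 1 to 4 from 1.5 to 3 h and 1 to 2 from 6 to 12 h. With the replicate number as a replicate block, the number called was 2 at 1 h and 4 at 6 h, as without it, and the block changed no count of members in any comparison, while the lower count of Slc30 genes at 1 h and those of Slc39 and copper genes at 1.5 h went from 1 to 0; the numbers do not pair the libraries (mean correlation of same-numbered deviations -0.007). Without duplicates the mean Mt1 to Mt2 ratio was 2.26 at 1.5 h, 1.36 at 6 h and 1.49 at 12 h. Ranked by Pearson correlation over the 24 libraries, 4 of the 9 most alike genes were the same. Uncalled log2 fold changes that turned direction when 1 library was left out ranged, for Mt1, from -0.080 to 0.38 after ischemia, -0.22 to 0.24 at 0.5 h and -0.27 to 0.10 from ischemia to 0.5 h. Mtf1 ranged from -0.12 to 0.034 at 3 h, -0.094 to 0.052 at 12 h, -0.13 to 0.054 from ischemia to 0.5 h and -0.0061 to 0.16 from 1.5 to 3 h. Slc30a1 ranged from -0.063 to 0.037 at 0.5 h, -0.091 to 0.11 at 1.5 h, -0.030 to 0.18 at 12 h and -0.15 to 0.047 from 1 to 1.5 h. Slc39a14 ranged from -0.19 to 0.082 after ischemia, -0.082 to 0.19 at 0.5 h and -0.22 to 0.056 at 1 h. Slc39a8 ranged from -0.96 to 0.036 after ischemia, -0.21 to 1.07 at 3 h, -0.10 to 0.10 at 12 h, -0.54 to 0.46 from ischemia to 0.5 h and -1.37 to 0.10 from 1 to 1.5 h. Without the filter the turned values were 0.012 for Mtf1 at 12 h and 0.015 for Slc39a8 at 12 h. With only the groups compared the turned value was 0.00041 for Slc30a1 at 0.5 h. With multiply mapped reads the turned value was 0.0050 for Mt1 at 0.5 h. Without duplicates the turned values were 0.31 for Mt1 at 0.5 h, 0.012 for Slc39a8 at 12 h and 0.10 for Mt1 from ischemia to 0.5 h. Over all genes, the number called at 0.5 h against sham was 1802, and 603 to 2318 when 1 library was left out and 1605 to 3937 under the other settings. The same numbers were 1645, 559 to 2035 and 1233 to 2008 at 1 h, and 1141, 503 to 1430 and 1009 to 2062 at 1.5 h. At 3, 6 and 12 h no setting moved the number by over 1.5 times. From 1.5 to 3 h it was 1290, 525 to 1751 and 679 to 1621, from 3 to 6 h 4223, 2830 to 4594 and 2765 to 4422, and from 6 to 12 h 1992, 786 to 2310 and 1469 to 2307. After ischemia it was 14, 5 to 39 and 3 to 289. From ischemia to 0.5 h it was 5, 2 to 1156 and 0 to 329, from 0.5 to 1 h 0, 0 to 3 and 0 to 159, and from 1 to 1.5 h 10, 0 to 20 and 1 to 357.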

Other observations

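Copper handling, the other metal that metallothioneins bind, was followed in a list of 12 genes, of which 11 were tested. At 3 h 4 were higher and 4 lower (1 to 4 lower when single libraries were left out), against 18.4% and 16.9% of all genes. At 6 h 3 were higher (5 without duplicates) and 2 lower, against 24.6% and 22.9%. At 12 h 1 was higher (0 to 2 when single libraries were left out) and 2 lower, against 16.9% and 14.9%. Steap4, a metalloreductase, went from 59.8 ± 9.37 CPM in sham to 121 ± 29.8 (SD, n = 3) at 3 h, a log2 fold change of 1.01 ± 0.21 (edgeR adjusted p = 0.000631). Its relative Steap3 went from 41.6 ± 1.88 to 18.5 ± 4.77 CPM (SD, n = 3) at 6 h, a change of -1.16 ± 0.14 (edgeR adjusted p = 3.60e-07). Cox17, the copper chaperone of cytochrome c oxidase, was lower at 1 h by -1.71 ± 0.39 (edgeR adjusted p = 0.00631), from 3.94 to 1.20 CPM.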
